A study of Mus musculus with 32 samples.

Results

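The mRNAs of the cytosolic translation elongation machinery were followed here through polysome profiling of 4T1 spheroids. They were taken by gene symbol from the count table: Eef1a1, Eef1b2, Eef1d, Eef1g, Eef2 and Eef2k, 6 of 17757 genes. 4T1 is a mouse mammary carcinoma line, and the study asked which mRNAs change their translation when aspartate signals to such cells in a lung-like medium. All spheroids grew for 5 days in that medium. They formed 4 conditions: cells with a control hairpin and 700 µM aspartate (ASP shSCR), the same cells without added aspartate (NoASP shSCR), and cells with a hairpin against Grin2d, an NMDA receptor subunit (ASP shGRIN2D), or against Dhps, deoxyhypusine synthase (ASP shDHPS), both with 700 µM aspartate. Every line, the control included, carried a lentiviral pLKO hairpin vector. There were 4 separately grown pellets of spheroids for every condition, and from each came a polysomal library (mRNA with more than 3 ribosomes) and a sub-polysomal library (fewer than 3), 32 libraries in all. Library totals ran from 12870563 to 25639437 counts, and the 6 genes took 0.912 to 1.63% of the counts of a polysomal library and 1.74 to 3.64% of those of a sub-polysomal one.

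In elongation, eEF1A carries aminoacyl-tRNA to the ribosome as a complex with GTP, the eEF1B complex exchanges the GDP that eEF1A is left with for GTP, and eEF2 moves the ribosome along the mRNA by one codon. eEF2 kinase phosphorylates eEF2 and thereby slows elongation. The mRNAs of the factors themselves, like those of ribosomal proteins, are known as TOP mRNAs: they start with a C followed by a stretch of pyrimidines, and their loading onto ribosomes follows mTORC1 activity.

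The 5′ ends of 5 of the transcripts are shown because that pyrimidine stretch is the sequence element these mRNAs are known for. Each is a window of 30 bases from the principal transcript in GENCODE M21 (GRCm38), with the longest run of C or T that begins with C in the first 100 bases in capitals, read on the sense strand. The transcription start used in 4T1 cells was not measured, so the run need not be the first base of the mRNA. The windows lie, in the order printed, at chr9:78481650-78481679 (minus strand), chr1:63176872-63176901 (plus), chr15:75909291-75909320 (minus), chr19:8967119-8967148 (plus) and chr7:120842848-120842877 (plus), each near the start of the transcript.
Eef1a1: tggacgttCTTTTTCgcaacgggtttgccg
Eef1b2: aactccggCTCCTCagagggcgtttccctt
Eef1d: cgcgggcgCCCTCCCTCTCCTTTgcagtcc
Eef1g: ccacactgCTCTCTCCTTTCCTcctccctt
Eef2k: ggtcccagCCTCCagcctccagctccaacc
Runs were followed only to base 100, and that of Eef1g was still going there: the pyrimidines in lower case after its capitals continue it, so its length is not given. The run was 15 bases long in Eef1d, a length reached by 2.0% of the 13376 genes with a coding transcript. It was 7 bases in Eef1a1 (35.9% of genes reached this), 6 in Eef1b2 (52.7%) and 5 in Eef2k (73.5%). The median was 6 over all these genes and 9 over 76 ribosomal protein genes.

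Before the results, the labels and the libraries were checked. Dhps fell in the ASP shDHPS spheroids against ASP shSCR, by 2.01 on the log2 scale in the sub-polysomal fraction (SE 0.164, edgeR adjusted p 1.11e-08) and by 1.64 in the polysomal fraction (SE 0.233, adjusted p 0.0167). The polysomal call was lost, at adjusted p 0.0546 to 0.111 and log2 differences of -1.48 to -1.65, without ASP shSCR replicate 2, ASP shDHPS replicate 1 or ASP shDHPS replicate 3, or with these 2 conditions alone. The Grin2d log2 differences in ASP shGRIN2D were -1.14 in the polysomal and -0.88 in the sub-polysomal fraction and did not pass the test (adjusted p 0.263 and 0.233). Their unadjusted edgeR p was 0.00266 and 0.0059, beside 9.06% and 11% of all genes with one below 0.05. Grin2d was counted at 1.06 to 2.39 CPM in polysomal and 1.87 to 2.89 CPM in sub-polysomal ASP shGRIN2D libraries. In ASP shSCR it was 2.66 to 4.03 and 3.32 to 6.91 CPM. The 5 epithelial markers (Epcam, Krt8, Krt18, Krt19, Cdh1) summed to 1665 to 6487 CPM (counts scaled to the size of the library) in a library. In sub-polysomal ASP shDHPS libraries 3 of these 5 were lower than in ASP shSCR, and 0 of 5 were higher. By edgeR, 0.974% of all genes passed as lower there and 0.439% as higher. The log2 differences were -0.74 for Krt8, -0.995 for Krt18 and -1.04 for Krt19. In sub-polysomal ASP shGRIN2D libraries 0 of 5 passed by edgeR, beside 0.315% of all genes, and 2 by DESeq2. Of the 5, 4 had an unadjusted p below 0.05, beside 11% of all genes. All 4 had a negative difference (-1.01 for Krt18 and -0.83 for Krt8). The part of this in the results was not tested. The leukocyte marker Ptprc and the endothelial marker Pecam1 stayed at or below 0.879 and 0.658 CPM, and the fibroblast marker Pdgfra, which was present, lay between 6.58 and 35.6 CPM. The markers Cd3e, Adgre1, Cdh5 and Dcn were not analysed here. One library stood apart: on a scale where 0 is the mean sub-polysomal and 1 the mean polysomal profile of the other conditions, the polysomal RNA of replicate 1 in ASP shSCR lay at 0.372, against 0.777 to 1.27 for the other 15 polysomal libraries and -0.114 to 0.162 for the sub-polysomal ones. For the members, the ratios of ASP shSCR and the ratio differences from it are given with and without this pellet. Of their level differences, only some polysomal ones are also given without it. The checks above, the levels per length and the other gene lists are given only with it.

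In every condition 4 of the elongation factor mRNAs were lower in the polysomal than in the sub-polysomal fraction, and the other two were higher. In ASP shSCR spheroids the fitted polysomal to sub-polysomal ratio was 0.463 for Eef1a1, 0.429 for Eef1b2, 0.472 for Eef1g and 0.263 for Eef2. It was 1.78 for Eef1d and 1.82 for Eef2k. A ratio of 1 is that of an average mRNA in the library, because the libraries were scaled to each other, so a ratio does not give the share of an mRNA's molecules on polysomes. In this and the 3 other conditions all 6 ratios differed from 1 (edgeR quasi-likelihood test, Benjamini-Hochberg adjusted p below 0.05), 4 of 6 lower and 2 of 6 higher. This was not rare: of all genes, 39.7% passed in ASP shSCR (18.9% lower, 20.8% higher), 44.3% in NoASP shSCR (20.6% lower, 23.7% higher), 43.5% in ASP shGRIN2D (20.4% lower, 23.0% higher) and 43.1% in ASP shDHPS (21.3% lower, 21.8% higher). Without ASP shSCR replicate 1 the ratios of ASP shSCR lay further from 1, at log2 values of -1.36 for Eef1a1, -1.41 for Eef1b2, -1.31 for Eef1g, -2.23 for Eef2, 0.85 for Eef1d and 0.92 for Eef2k, and all 6 passed.

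**Figure D1:**
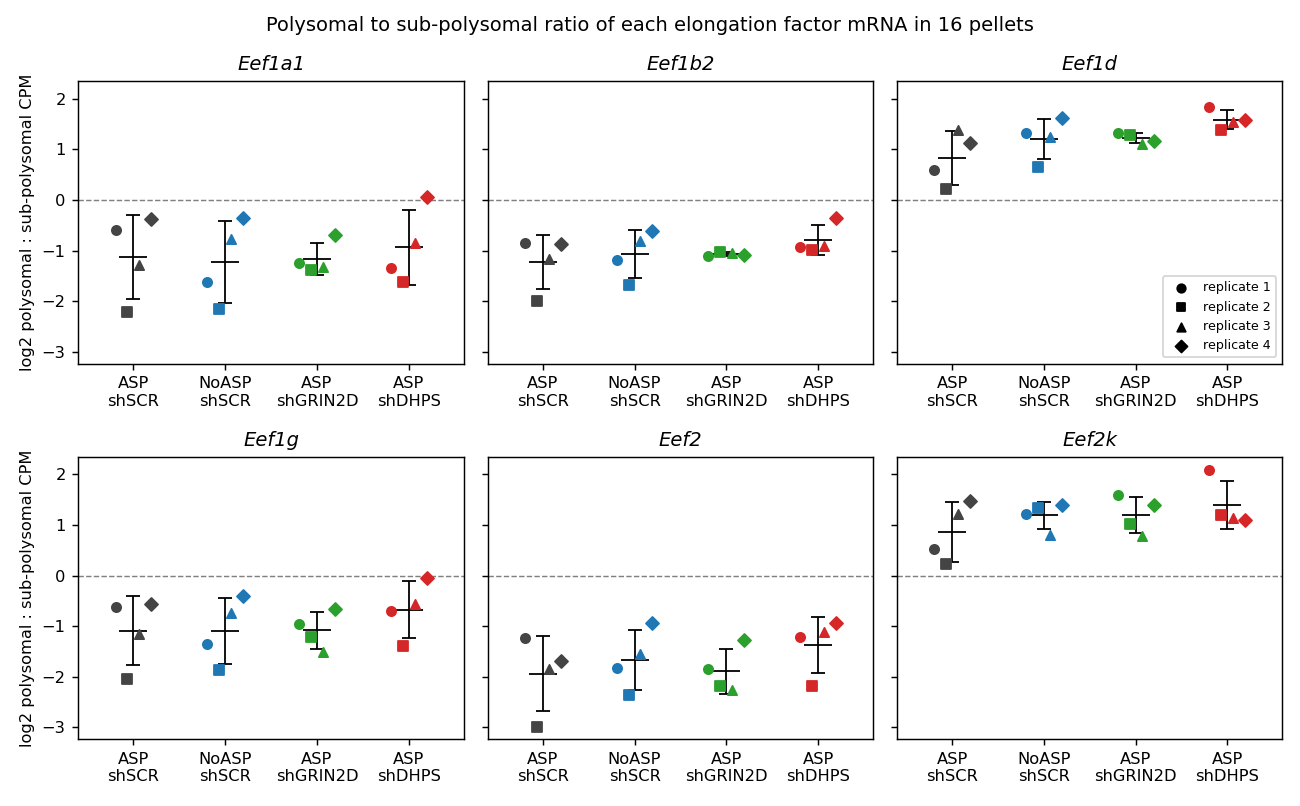
Log2 polysomal to sub-polysomal ratio of CPM (vertical axis) of the 6 mRNAs in each of 16 pellets, by condition; symbols are pellets, and bars the mean and SD of 4. Eef1a1, Eef1b2, Eef1g and Eef2 lie below 0 in all pellets but 1, and Eef1d and Eef2k above 0 in all 16.

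Eef1a1, which encodes the carrier of aminoacyl-tRNA, is ENSMUSG00000037742 on chromosome 9 (GRCm38 78478449 to 78489151, minus strand). Its log2 ratios in the 4 ASP shSCR pellets were -0.59, -2.22, -1.29 and -0.38, in the order of their replicate numbers. In NoASP shSCR they were -1.62, -2.16, -0.77 and -0.36. Both conditions thus held pellets that differed by more than 1.5 on the log2 scale, and all 8 were below 0. In ASP shGRIN2D the values were -1.25, -1.39, -1.33 and -0.69. In ASP shDHPS they were -1.34, -1.62, -0.86 and 0.064. Replicate 4 of ASP shDHPS was the only pellet above 0, and replicate 2 was the lowest and replicate 4 the highest in every condition. The fitted log2 ratio was -1.11 (SE 0.307, edgeR adjusted p 0.00471) in ASP shSCR, -1.23 (SE 0.308, 0.00173) in NoASP shSCR, -1.17 (SE 0.301, 0.00226) in ASP shGRIN2D and -0.94 (SE 0.305, 0.0133) in ASP shDHPS. The last call was lost without ASP shDHPS replicate 1 (-0.81, adjusted p 0.0784) or replicate 2 (-0.71, 0.109); over all 23 alternatives its adjusted p ran from 0.00031 to 0.109.

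The eEF1B complex holds the exchange subunits eEF1Bα (Eef1b2) and eEF1Bδ (Eef1d) and the scaffold eEF1Bγ (Eef1g), and their mRNAs did not lie on the same side. Eef1b2 (ENSMUSG00000025967, chromosome 1, 63176825 to 63180486, plus strand) had log2 ratios of -0.85, -2.0, -1.17 and -0.87 in ASP shSCR. In NoASP shSCR they were -1.18, -1.68, -0.81 and -0.61. All 8 pellets lay below 0, with replicate 2 the lowest of each condition. In ASP shGRIN2D they were -1.12, -1.03, -1.05 and -1.09, and in ASP shDHPS -0.93, -0.98, -0.91 and -0.35. The ASP shGRIN2D pellets lay within 0.1 of each other (SD 0.041), and ASP shDHPS replicate 4 was far above the other pellets of its condition. The fitted log2 ratio of Eef1b2 was -1.22 (SE 0.212), -1.07 (SE 0.211), -1.07 (SE 0.209) and -0.79 (SE 0.209) in the order of the conditions above, with edgeR adjusted p between 4.58e-05 and 0.00272.

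Eef1g (ENSMUSG00000071644, chromosome 19, 8967041 to 8978479, plus strand) had log2 ratios of -0.61, -2.03, -1.15 and -0.57 in ASP shSCR. In NoASP shSCR they were -1.36, -1.86, -0.73 and -0.39. As for Eef1a1, replicate 2 was the lowest and replicate 4 the highest in both. In ASP shGRIN2D the values were -0.95, -1.21, -1.5 and -0.66, and in ASP shDHPS -0.70, -1.40, -0.55 and -0.039. All 16 pellets were below 0, the last of them by less than any other. The fitted log2 ratio of Eef1g was -1.09 (SE 0.262, edgeR adjusted p 0.00145) in ASP shSCR and -0.67 (SE 0.258, 0.0369) in ASP shDHPS, with -1.09 and -1.08 in NoASP shSCR and ASP shGRIN2D. The ASP shDHPS call was lost without ASP shDHPS replicate 1 (-0.66, adjusted p 0.0937), replicate 2 (-0.43, 0.259) or replicate 3 (-0.71, 0.072), and with TMM factors set within each fraction (-0.53, 0.114); over all 23 alternatives the adjusted p ran from 0.00322 to 0.259.

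Eef1d (ENSMUSG00000055762, chromosome 15, 75894205 to 75909556, minus strand) was the member of the complex on the polysomal side. Its log2 ratios were 0.59, 0.22, 1.39 and 1.13 in ASP shSCR. In NoASP shSCR they were 1.31, 0.66, 1.25 and 1.62. All 8 pellets lay above 0, and replicate 2 was again the lowest of each condition. In ASP shGRIN2D the values were 1.32, 1.29, 1.11 and 1.17, and in ASP shDHPS 1.84, 1.38, 1.55 and 1.58. The lowest ASP shDHPS pellet lay just under the highest ASP shSCR pellet (1.382 against 1.388), so that these groups overlapped by a single pair of values. The fitted log2 ratio of Eef1d was 0.83 (SE 0.195, edgeR adjusted p 0.00113) in ASP shSCR, 1.21 (SE 0.196) in NoASP shSCR, 1.22 (SE 0.195) in ASP shGRIN2D and 1.59 (SE 0.197, 3.6e-07) in ASP shDHPS. Within a pellet, Eef1d lay above its partner Eef1b2 in 16 of 16 pellets, by 1.44 to 2.77 on the log2 scale (median 2.28), and above Eef1g in 16 of 16, by 1.20 to 2.78 (median 2.26). These gaps compare genes within libraries and are given with no test.

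Eef2, the translocase, is ENSMUSG00000034994 on chromosome 10 (81176631 to 81182498, plus strand), and its ratio was the lowest of the 6 in the fit of every condition. Its log2 ratios were -1.23, -2.98, -1.85 and -1.69 in ASP shSCR. In NoASP shSCR they were -1.83, -2.37, -1.54 and -0.94. In these conditions replicate 2 was the lowest. In ASP shGRIN2D the values were -1.85, -2.19, -2.26 and -1.27, and in ASP shDHPS -1.22, -2.17, -1.12 and -0.93. All 16 pellets were below 0, and Eef2 lay below Eef1b2 in each of them, by 0.184 to 1.22. The fitted log2 ratio of Eef2 was -1.93 (SE 0.278, edgeR adjusted p 4.47e-06) in ASP shSCR, -1.67 (SE 0.274) in NoASP shSCR, -1.89 (SE 0.274) in ASP shGRIN2D and -1.36 (SE 0.271, 0.000174) in ASP shDHPS. Among all genes this placed Eef2 at percentile 6.64 in ASP shSCR, 12.6 in NoASP shSCR, 10.4 in ASP shGRIN2D and 18.6 in ASP shDHPS.

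Eef2k, the kinase that acts on eEF2, is ENSMUSG00000035064 on chromosome 7 (120842831 to 120907450, plus strand). Its log2 ratios were 0.52, 0.23, 1.22 and 1.48 in ASP shSCR. In NoASP shSCR they were 1.23, 1.34, 0.81 and 1.4. ASP shSCR held the lowest pellets, its replicates 1 and 2, and all 8 lay above 0. In ASP shGRIN2D the values were 1.60, 1.02, 0.79 and 1.39, and in ASP shDHPS 2.10, 1.20, 1.14 and 1.11. ASP shDHPS replicate 1 was far above the other pellets of its condition. The fitted log2 ratio of Eef2k was 0.87 (SE 0.216, edgeR adjusted p 0.00199) in ASP shSCR, 1.20 (SE 0.216) in NoASP shSCR, 1.21 (SE 0.216) in ASP shGRIN2D and 1.39 (SE 0.218, 8.3e-06) in ASP shDHPS. Eef2k rested on fewer reads than the others, with 123 counts in its thinnest library, against at least 2402 for each of the other 5. Eef2k lay above Eef2 in 16 of 16 pellets, by 1.75 to 3.71 on the log2 scale, whereas Eef2k and Eef1d changed places, Eef1d being the higher in 10 of 16.

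The study's main question for an mRNA is whether its ratio depends on aspartate, Grin2d or Dhps, and for the 6 elongation factors no such difference passed the test. Without aspartate (NoASP shSCR minus ASP shSCR) the log2 differences ran from -0.12 for Eef1a1 to 0.38 for Eef1d, and 0 of 6 passed by edgeR, beside 0% of all genes. None passed by DESeq2 either, as for all genes, and none had an unadjusted p below 0.05, beside 1.93% of all genes. With the Grin2d hairpin they ran from -0.054 for Eef1a1 to 0.39 for Eef1d, and 0 of 6 passed by edgeR, beside 0% of all genes. Again none passed by DESeq2, as for all genes, and none had an unadjusted p below 0.05, beside 3.22% of all genes. With the Dhps hairpin all 6 differences were positive and 0 of 6 passed by edgeR, beside 0.208% of all genes. The sign of Eef1a1 turned without ASP shSCR replicate 2 (-0.18) or ASP shDHPS replicate 4 (-0.16), and those of the other 5 held in all alternatives. These were 0.17 for Eef1a1 (95% interval -0.72 to 1.05), 0.41 for Eef1g (-0.34 to 1.16), 0.43 for Eef1b2 (-0.18 to 1.03), 0.53 for Eef2k (-0.096 to 1.15), 0.57 for Eef2 (-0.21 to 1.35) and 0.76 for Eef1d (0.19 to 1.32). Eef1d was thus the one member whose 95% interval left out 0 (unadjusted p 0.0103, edgeR adjusted p 0.211, SE 0.273), beside 13.6% of all genes with an unadjusted p below 0.05. It passed by DESeq2 (0.80, SE 0.252, adjusted p 0.0368), as did 626 of all genes, and its adjusted p over 24 alternatives ran from 0.0368 to 0.509. By edgeR, the 37 genes of the whole table that passed in this comparison all had a lower ratio in ASP shDHPS. The number of genes passing ran from 0 to 159 when 1 pellet was left out. By DESeq2 genes could pass with a higher ratio, as Eef1d did. For all 6 members an increase of 2-fold in the ratio lay inside the interval, so that the spread between pellets leaves room for a change of this size.

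The 3 comparisons share the ASP shSCR pellets, among them the pellet whose polysomal library stood apart. Without it, the ASP shDHPS differences were 0.39 for Eef1a1, 0.61 for Eef1g, 0.59 for Eef1b2, 0.45 for Eef2k, 0.85 for Eef2 and 0.71 for Eef1d, and none passed (edgeR adjusted p 0.235 to 0.717). Without it the NoASP shSCR differences were 0.085 for Eef1a1, 0.18 for Eef1g, 0.30 for Eef1b2, 0.24 for Eef2k, 0.52 for Eef2 and 0.31 for Eef1d, so that Eef1a1 and Eef1g changed sign, and the ASP shGRIN2D differences ran from 0.17 for Eef1a1, which changed sign, to 0.34 for Eef1d. None of these passed (edgeR adjusted p 1). With each pellet left out in turn, the ASP shDHPS differences ran from 0.12 to 0.65 for Eef1g and 0.19 to 0.59 for Eef1b2. They ran from 0.29 to 0.735 for Eef2k, 0.25 to 0.85 for Eef2 and 0.57 to 0.94 for Eef1d. For Eef1a1 they ran from -0.18 to 0.42, and none of these passed by edgeR. None of the differences among the other conditions passed. For ASP shGRIN2D minus NoASP shSCR and ASP shDHPS minus NoASP shSCR, 0 of 6 members and 0% of all genes passed by edgeR. For ASP shDHPS minus ASP shGRIN2D it was 0 of 6 beside 0.00563% of all genes, and in these 3 pairs no member passed by DESeq2 (0, 55 and 37 of all genes did) or had an unadjusted p below 0.05 (1.1%, 7.01% and 6.41% of all genes).

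**Figure D2:**
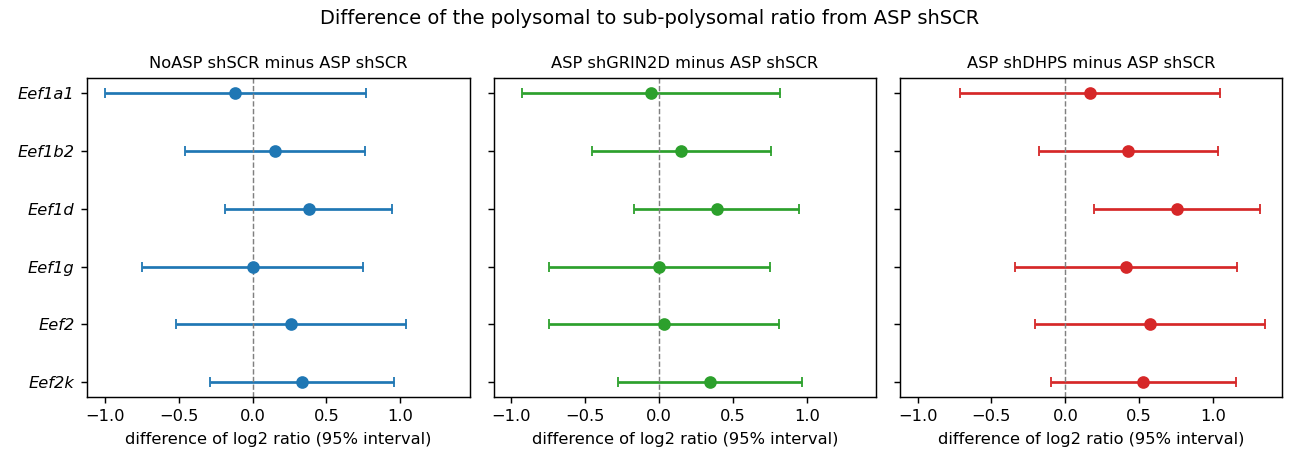
Difference of the log2 polysomal to sub-polysomal ratio from ASP shSCR (horizontal axis) for the 6 mRNAs in 3 comparisons that share the ASP shSCR pellets; points are edgeR estimates and lines 95% intervals. With the Dhps hairpin all 6 points lie above 0, from 0.17 to 0.76, and the interval of Eef1d alone leaves out 0; the point of Eef1a1 falls to -0.18 without ASP shSCR replicate 2.

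The level of an mRNA in 1 fraction, in CPM, is relative to the other mRNAs of the libraries, so it does not show which fraction gained or lost molecules. In bulk libraries such a level does not tell fewer cells that carry an mRNA from less of it per cell. In the polysomal fraction Eef1d had 333, 340, 454 and 478 CPM in ASP shSCR and 652, 452, 580 and 530 CPM in ASP shDHPS. In the sub-polysomal fraction it had 221, 293, 173 and 218 CPM in ASP shSCR and 182, 173, 199 and 177 CPM in ASP shDHPS. The ranges overlapped in both fractions, with the ASP shDHPS mean higher in the polysomal fraction (log2 difference 0.41, SE 0.189, unadjusted p 0.0408, edgeR adjusted p 0.284) and lower in the sub-polysomal one (-0.32, SE 0.155, adjusted p 0.314). Eef2 in the sub-polysomal fraction had 8538, 14950, 7022 and 7200 CPM in ASP shSCR. Replicate 2 was far above the other pellets. It had 8225, 8739, 4754 and 5334 CPM in NoASP shSCR, 7538, 6452, 8208 and 7445 CPM in ASP shGRIN2D and 6855, 7555, 6499 and 5419 CPM in ASP shDHPS. The log2 differences from ASP shSCR were -0.49 (SE 0.239, edgeR adjusted p 0.848), -0.36 (SE 0.238, 0.604) and -0.53 (SE 0.239, 0.274), with unadjusted p of 0.049, 0.144 and 0.0358. They depended on single pellets: with 1 pellet left out they ran from -0.64 to -0.17, -0.47 to -0.024 and -0.64 to -0.20.

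Over the 36 level comparisons of a member with ASP shSCR none passed by edgeR or DESeq2. In the polysomal fraction it was 0 of 6 in each comparison, beside 0% of all genes in NoASP shSCR, 0.0169% in ASP shGRIN2D and 0.169% in ASP shDHPS, and Eef1d in ASP shDHPS was the 1 member with an unadjusted p below 0.05, which 16.4% of all genes had there. In the sub-polysomal fraction it was 0 of 6 as well, beside 0%, 0.315% and 1.41%, with Eef2 under an unadjusted 0.05 in NoASP shSCR and in ASP shDHPS, as were 4.91% and 16% of all genes. Without ASP shSCR replicate 1 no level passed either, and the polysomal log2 difference changed sign for Eef1a1 in all 3 comparisons (0.20 in NoASP shSCR, 0.089 in ASP shGRIN2D and 0.12 in ASP shDHPS), while that of Eef2 in ASP shDHPS went from 0.012 to 0.38. The sign also changed for Eef1b2 (0.23 and 0.097) and Eef2 (0.071 and 0.025) in NoASP shSCR and ASP shGRIN2D and for Eef1g in NoASP shSCR (0.046) and ASP shDHPS (0.37). Eef1a1 in the sub-polysomal fraction had a mean of 16100 ± 5075 CPM (SD, n = 4) in ASP shSCR, 16160 ± 4372 in NoASP shSCR, 14530 ± 1505 in ASP shGRIN2D and 12240 ± 2203 in ASP shDHPS. All 6 members had a negative sub-polysomal log2 difference in ASP shDHPS, from -0.21 for Eef2k to -0.53 for Eef2, and none passed the test.

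**Figure D3:**
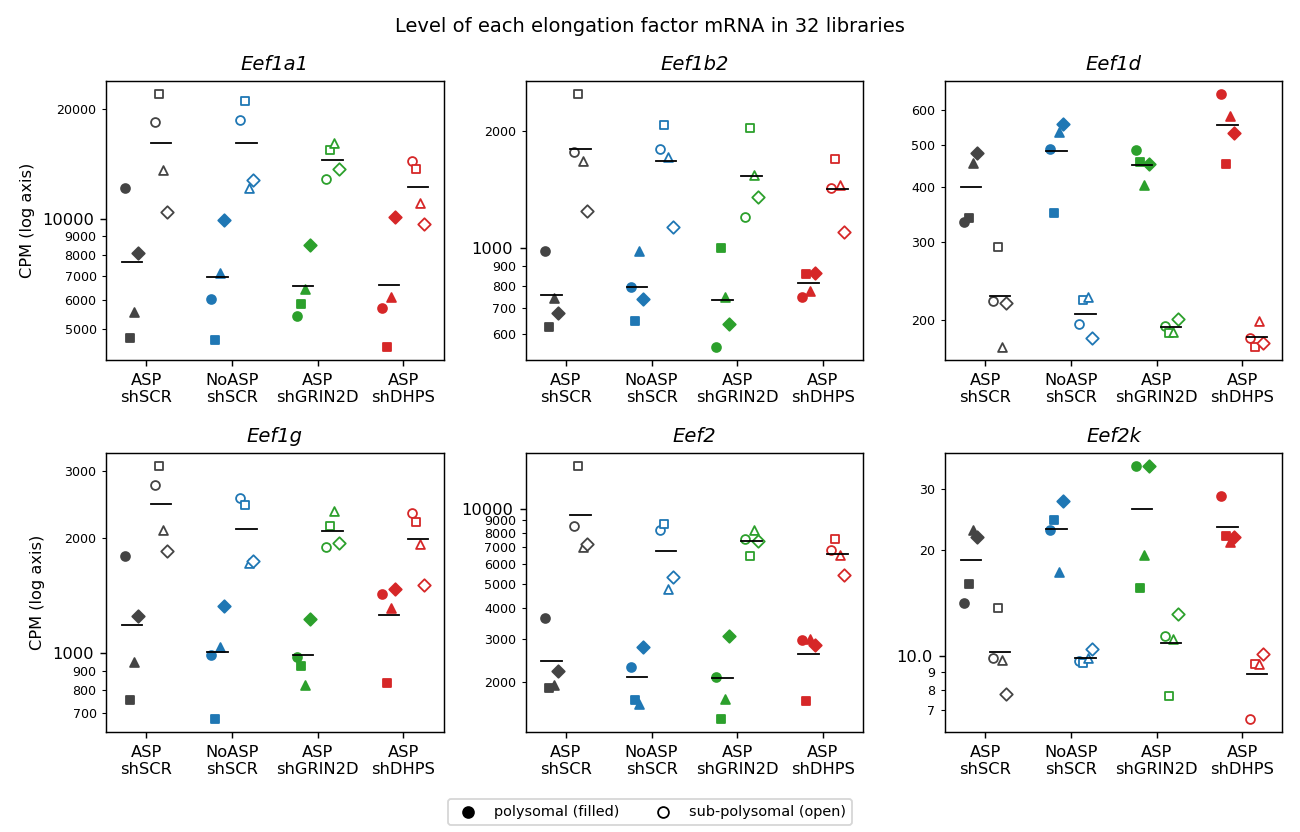
CPM (vertical log axis, scale differing between panels) of the 6 mRNAs in 32 libraries by condition; filled symbols are polysomal and open symbols sub-polysomal libraries, shapes are replicates as in the plot of pellet ratios, and lines are means of 4. The means of the open symbols lie higher for Eef1a1, Eef1b2, Eef1g and Eef2 and those of the filled ones for Eef1d and Eef2k; single libraries cross for Eef1a1, as in ASP shDHPS replicate 4 (10160 CPM polysomal, 9723 sub-polysomal).

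To set levels of different genes beside each other, CPM were divided by the median length of the gene's coding transcripts in GENCODE (1310 bases for Eef1b2 to 3089 for Eef2). In sub-polysomal ASP shSCR libraries this gave, in CPM per kilobase (mean ± SD, n = 4), 8974 ± 2829 for Eef1a1 and 3052 ± 1212 for Eef2. Eef1b2 followed with 1371 ± 398 and Eef1g with 1314 ± 306, which did not differ beyond their spread, and Eef1d with 139 ± 30.5 and Eef2k with 3.37 ± 0.809 came last. In polysomal ASP shSCR libraries the order was Eef1a1 (4258 ± 1867), Eef2 (786 ± 267), Eef1g (637 ± 244), Eef1b2 (578 ± 119), Eef1d (247 ± 46.4) and Eef2k (6.15 ± 1.41), with the level per length of Eef2, Eef1g and Eef1b2 within each other's spread. Eef1a1 was the first, Eef1d the fifth and Eef2k the last in all 4 conditions and both fractions. The subunits of eEF1B therefore differed in mRNA level per length as well, Eef1d being the lowest of these 3 in each group of libraries.

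Across the 16 pellets the ratios of the 4 sub-polysomal members rose and fell together. Pearson's r over pellets was 0.947 between Eef1a1 and Eef1g, 0.941 between Eef1g and Eef2, 0.888 between Eef1b2 and Eef1g, 0.878 between Eef1a1 and Eef1b2, 0.842 between Eef1a1 and Eef2 and 0.83 between Eef1b2 and Eef2. Eef2k was less alike, with r of 0.144 to Eef1a1 and 0.708 to Eef1d, and Eef1d lay between, with r from 0.445 to Eef1a1 up to 0.709 to Eef1b2. These are descriptions over pellets that share a fractionation and a scaling, and no p is given. In 17 of the 24 sets of 4 pellets (6 mRNAs in 4 conditions) replicate 2 was the lowest, and in 16 replicate 4 was the highest. The polysomal libraries of replicate 2 lay at 0.777, 0.984, 0.841 and 0.91 on the scale between the fractions, with the conditions in the same order, and those of replicate 4 at 0.998, 1.27, 1.15 and 1.14; the part of this in the ratios was not tested.

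Among the 11046 genes that reached 10 counts in each of the libraries, the 3 whose pellet ratios were most like those of Eef1b2 were ribosomal protein mRNAs, Rpl17 (r 0.94), Rpl6 (0.932) and Rps4x (0.927). For Eef1d they were Rpl8 (0.931), a ribosomal protein of the large subunit, Fdps (0.92), farnesyl diphosphate synthase, and Ap1m2 (0.918), an adaptor subunit. For Eef2 they were Gpi1 (0.943), an enzyme of glycolysis, Eef1g (0.941) and Snd1 (0.93). Eef2k was closest to Fbrs (0.938), Usp20 (0.93) and Esyt1 (0.926). Eef1a1 was closest to Gm15459 (0.978), Hspa8 (0.969), a constitutive HSP70 chaperone, and Gm13456 (0.959), and Eef1g to Gm4366 (0.987), Eef1a1 and Eef2. Of the 18 genes so named, 9 stayed among the closest 3 when ratios were centred on their condition.

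The 3 genes with Gm names are processed pseudogenes, and their reads could have come from the parent genes. Gm4366 matched Eef1g at 99.6% identity over 1342 bases and drew 10.4% as many counts as Eef1g. Gm13456 matched Eef1a1 at 98.6% over 1317 bases, with 0.174% as many counts, and Gm15459 matched Hspa8 at 99.7% over 1941 bases. With at least 90% identity over at least 300 bases, 13 such copies of Eef1a1 were in the table, together at 0.47% of its counts, 4 of Eef1g (10.5%), 3 of Eef2 (0.0326%), 1 of Eef1d (0.0441%) and 0 of Eef1b2 and Eef2k. Adding the copies' counts to the member left the Eef1g log2 ratio at -1.09 in ASP shSCR (edgeR adjusted p 0.00142), moved it from -0.67 to -0.68 in ASP shDHPS (adjusted p 0.0344) and changed no call.

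Other translation genes were set beside the 6 members as counts and medians. Of all genes, 18.9% in ASP shSCR and 20.6% in NoASP shSCR passed with a ratio below 1. In ASP shGRIN2D it was 20.4% and in ASP shDHPS 21.3%. No list was tested against these shares. Of 78 cytosolic ribosomal protein mRNAs, 71 in ASP shSCR, 64 in NoASP shSCR, 62 in ASP shGRIN2D and 47 in ASP shDHPS passed the test with a ratio below 1, with median log2 ratios of -1.21, -1.13, -1.06 and -0.68. These medians lay near the values of Eef1b2 and Eef1g. Rpl41 (-2.56, SE 0.252) and Rps12 (-2.19, SE 0.268) had the lowest values in ASP shSCR. With the Dhps hairpin 73 of 78 differences were positive (median 0.55), of which 0 passed by edgeR, 33 had an unadjusted p below 0.05 and 20 passed by DESeq2. Over all genes the median was -0.013, 13.6% had an unadjusted p below 0.05 and 626 passed by DESeq2. Of 14 other TOP mRNAs, 7 were lower in ASP shSCR, among them Pabpc1, which encodes the poly(A)-binding protein (-2.0, SE 0.365), Tpt1 (-1.94, SE 0.216), Eif3f (-1.25, SE 0.233) and Rack1, a protein of the small ribosomal subunit (-1.22, SE 0.197). None of the 14 was higher in ASP shSCR, and Npm1, which encodes nucleophosmin, was higher in the other conditions (0.83 to 0.99).

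Not all elongation-related mRNAs were on the sub-polysomal side. Of all genes, 20.8% passed as higher and 18.9% as lower in ASP shSCR, and these lists were not tested against those shares. Of 6 other cytosolic elongation factors and related genes, Eif5a2 (log2 ratio -1.28, SE 0.317) and Gtpbp2 (-0.94, SE 0.196) were lower in ASP shSCR. Eefsec, the selenocysteine elongation factor (0.67, SE 0.223), and Gtpbp1 (0.65, SE 0.261) were higher. The same 4 passed in the same direction in the other conditions. Eif5a, the substrate of deoxyhypusine synthase, had log2 ratios of -0.17, -0.27, -0.32 and 0.04, none of which passed. Of 13 enzymes that modify eEF1A or eEF2, 7 were higher and 2 lower in ASP shSCR. Dph5 (1.59, SE 0.194) and Dph3 (-1.60, SE 0.249), both of the pathway that makes diphthamide on eEF2, lay at the 2 ends. Of 9 genes upstream of eEF2K and eEF2, 3 were higher and 3 lower. Among the lower ones, Calm3, a calmodulin gene, was at -1.39 (SE 0.244) and Ppp2cb, a catalytic subunit of protein phosphatase 2A, was at -1.36 (SE 0.324).

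Of the 5 mitochondrial elongation factors, 4 were higher in ASP shSCR, where 20.8% of all genes were higher and 18.9% lower. They were Gfm1 at 1.54 (SE 0.192), Gfm2 at 0.96 (SE 0.221), Tufm at 0.81 (SE 0.199) and Tsfm at 0.60 (SE 0.221). Guf1, the fifth, was at 0.017 there and lower in ASP shDHPS (-0.91, SE 0.206, edgeR adjusted p 0.000688). Of 8 termination, rescue and recycling factors, 5 were higher, led by Pelo (1.4, SE 0.267) and Mcts1 (1.29, SE 0.163), and Denr (-0.86, SE 0.222) was lower. Of 59 initiation factor subunits and related genes by symbol, 24 were higher and 5 lower, with a median of 0.35; Eif4ebp2, an inhibitor of eIF4E (-2.15, SE 0.218), was the lowest that passed and Eif2b3 (1.70, SE 0.199) the highest. In the ratio differences from ASP shSCR, 0 genes of any of these lists passed by edgeR. For ASP shDHPS the initiation list held 13 genes with an unadjusted p below 0.05 and 5 that passed by DESeq2, the termination, modifying enzyme and mitochondrial lists 2 and 0 each, the list upstream of eEF2K 1 and 1, the other TOP mRNAs 2 and 1, and the other cytosolic factors 0 and 0, beside the same 13.6% and 626 of all genes. In the level comparisons 2 did, both sub-polysomal in ASP shDHPS, where 1.41% of all genes passed: Hbs1l, a ribosome rescue factor (log2 difference 0.61, SE 0.155, adjusted p 0.0406), and Eif1a (0.78, SE 0.185, adjusted p 0.0272). By DESeq2, which called 651 of all genes in that comparison, the termination list held 3, the initiation list 3, the list upstream of eEF2K 2 and the ribosomal proteins 4.

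**Figure D4:**
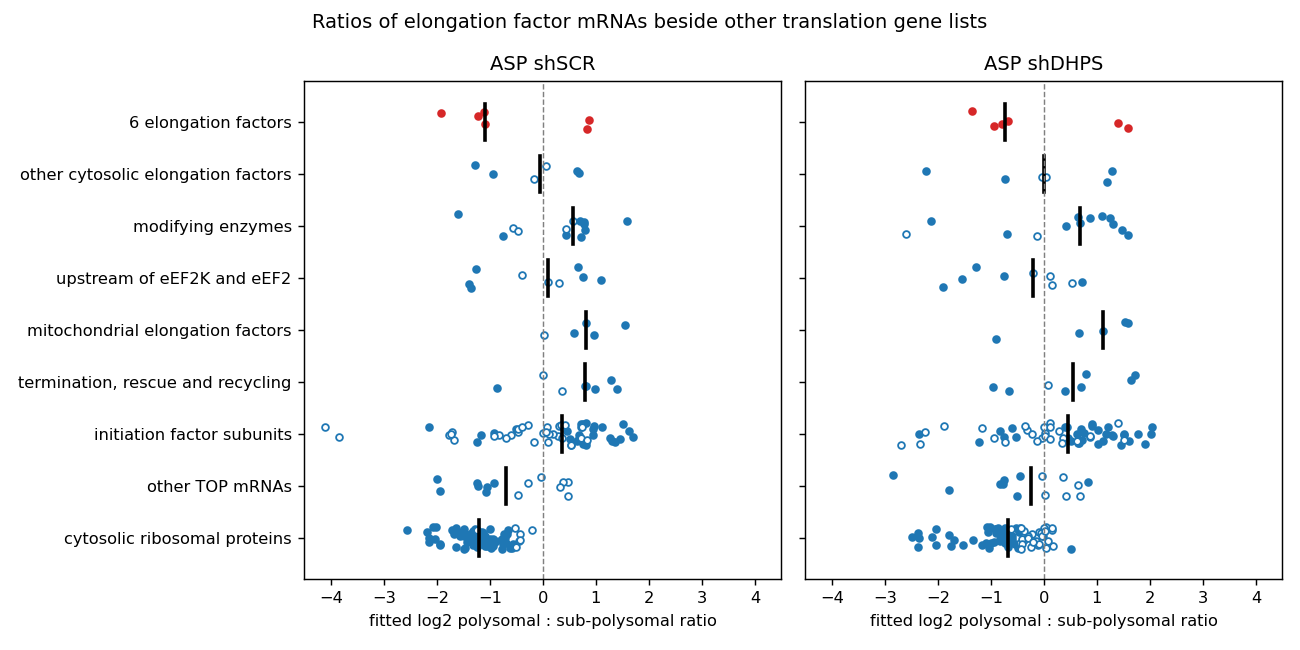
Fitted log2 polysomal to sub-polysomal ratio (horizontal axis) of the genes of 9 lists in ASP shSCR and ASP shDHPS spheroids; each point is a gene, filled where it passed the test and open where not, and bars are list medians. Eef1a1, Eef1b2, Eef1g and Eef2 lie within the range of the ribosomal protein mRNAs, whose median was -1.21 in ASP shSCR and -0.68 in ASP shDHPS, and Eef1d and Eef2k on the side of 4 of the mitochondrial elongation factors.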

How the data were processed

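Libraries were made with a stranded mRNA kit. The authors trimmed reads (Trim Galore 0.6.6), mapped them with STAR 2.6.1 to GRCm39, quantified genes with Salmon 1.4.0 and deposited the estimates as whole counts per gene, without genes that lacked expression in most replicates of each group. Salmon divides reads between near-identical genes, which can move counts between a gene and its pseudogenes. Deposited tables of the authors' own fold changes and enrichment scores were not used.

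Counts were analysed in R 4.3.3 with edgeR 4.0.16: TMM factors over 32 libraries, a coefficient for each of 16 pellets, a polysomal to sub-polysomal ratio for each condition, and quasi-likelihood tests adjusted over 17757 genes by Benjamini-Hochberg (threshold 0.05). Levels were fitted within a fraction. Pellet ratios used log2 CPM with a prior count of 2. Alternatives included DESeq2 1.42.0. Fits were tested on simulated data. Positions and transcripts are from GENCODE M21 (GRCm38), matched by Ensembl ID for 6 of 6 members. The members and lists were chosen with earlier results of these data known. Named genes were the 6 members, Dhps and Grin2d, up to 4 passing genes of largest change for a list and comparison (otherwise up to 2 of highest count), and the 3 most alike for each member. The 5′ end of 1 member and 1 gene of a list are not reported here.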

Additional observations from a re-analysis of the deposited data

Results flagged for a closer look

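In 72 groups of 4 values (pellet ratios and CPM of the 6 members), 4 held a value that stood further from its nearest neighbour than Dixon's 95% limit for 4 values allows, and chance gives about 1 group in 20. All were in ASP shDHPS. The log2 ratio of Eef1b2 in replicate 4 was -0.35, above the other pellets. The log2 ratio of Eef2k in replicate 1 was 2.10, and its polysomal CPM of 28.5 in that pellet was also far above the others. The polysomal CPM of Eef2 in replicate 2 was 1674, below the others. No cause was tested.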

How the results depend on the processing

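The ratios of the members kept their direction under every alternative run, and 546 of 552 alternative values kept their side of the threshold. The exceptions were Eef1a1 and Eef1g in ASP shDHPS. The number of members lower in ASP shDHPS was 4 and ran from 2 (without ASP shDHPS replicate 1 or replicate 2) to 4 when 1 pellet was left out. By DESeq2, 1 member (Eef1d) was higher in ASP shDHPS minus ASP shSCR, against 0 by edgeR. No level of a member changed its call in 828 values. Ratio differences of members that did not pass changed sign under some alternatives. Adding near-identical copies was chosen after seeing the data. Without the pellet term (no replicate block) the counts of members called were the same, 2 higher and 4 lower in each condition and 0 in each difference. Replicate numbers were not taken to pair pellets across conditions in the main fit. Same-numbered pairs deviated together more often than others, but not always. Their median correlation of deviations was 0.166, with 14 of 24 over 0.1. For pairs of different numbers it was -0.05, with 18 of 72 over 0.1. Whether replicate numbers mark shared batches was not tested. A replicate block across conditions gave the same counts of members (2, 4 and 0) and moved the genes called in ASP shDHPS minus ASP shSCR from 37 to 231. That number of genes was 0 with RLE factors, 184 with TMM within each fraction, 266 with at least 10 counts in every library, 626 by DESeq2, 0 without the pellet term, 0 with the 2 conditions alone, and 0 to 159 when 1 pellet was left out; the cause was not tested. For ASP shDHPS minus NoASP shSCR the number was 0, and 5 with at least 10 counts, 55 by DESeq2, 1 with the replicate block and 123 with the 2 conditions alone. For ASP shDHPS minus ASP shGRIN2D it was 1, and 2 with at least 10 counts and 37 by DESeq2. For polysomal levels it was 3 in ASP shGRIN2D (0 to 73 over the other settings, 0 to 98 when 1 pellet was left out) and 30 in ASP shDHPS (1 to 554, and 0 to 304). For sub-polysomal levels it was 56 in ASP shGRIN2D, with 224 by DESeq2, 195 with the replicate block and 23 to 64 when 1 pellet was left out, and 251 in ASP shDHPS, with 651, 758 and 80 to 370. The lowest of these came without ASP shGRIN2D replicate 4 (23) and ASP shSCR replicate 2 (80). Eef2k had the fewest counts of the members.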
